A study of Mus musculus with 4 samples.

Results

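The 10 genes Cdkn1a, Mdm2, Ccng1, Bax, Bbc3, Pmaip1, Phlda3, Zmat3, Aen and Trp53inp1, were followed in tumour cells and leukocytes of mouse brains that carried breast cancer, with and without an inhibitor of stearoyl-CoA desaturase. They were chosen by name as textbook p53 targets, with earlier results of these data known. All 10 were found among the 32285 genes of the deposited count tables. Female C57BL/6 mice had EO771 cells, 1 mouse mammary cancer line that carried GFP, placed in the brain. The mice, whose age is not given in the sources used here, then had vehicle or SCDi for 14 days, and neither the compound behind the name SCDi nor its dose is given there. All groups share the implanted line, the strain and the brain as the site. For each treatment the cells of 3 mice were combined before sorting on GFP without CD45 for the tumour and on CD45 without GFP for immune cells, both among DAPI-negative cells, so each of the 4 groups (vehicle or SCDi, tumour or immune) is 1 single-cell 3′ RNA library.

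p53, the product of Trp53, is a transcription factor that DNA damage and other stress stabilise. Its targets fall into roles: Cdkn1a encodes p21, an inhibitor of cyclin-dependent kinases that holds cells in G1, and Ccng1 encodes cyclin G1, a partner of phosphatase 2A. Mdm2 is the ubiquitin ligase that removes p53 and so closes a feedback loop. Bax, Bbc3 (PUMA) and Pmaip1 (NOXA) belong to the BCL2 family and promote the mitochondrial route of apoptosis, Phlda3 restrains AKT at the membrane, Zmat3 is an RNA-binding protein, Aen is a nuclease of apoptotic cells and Trp53inp1 is a cofactor of p53 and of autophagy. Most of these genes also respond to signals other than p53, so their transcripts are a count of RNA and not a measure of p53 activity.

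The libraries held 6777 to 9034 barcodes and 135851178 to 329888529 UMIs (unique molecular identifiers, 1 per captured RNA), and 9 to 23 barcodes were shared between any 2 of them. A marker gate left 7198 vehicle and 8519 SCDi tumour cells, at median depths of 42216.5 and 37508 UMIs. In them the keratin Krt8 stood at 1483 and 1403 counts per 1000000 (CPM, over all UMIs of the class), while the myeloid gene Lyz2 stood at 0.113 and 0.0707 CPM. Krt8 with no Ptprc, the gene of CD45, was part of the gate. Gates on fixed markers gave 10 leukocyte classes with at least 50 cells per library, from 94 to 1878 cells. Gated classes may still hold mixed cells. The class planned for neutrophils, had Csf1r UMIs in 87.9% and 90.7% of its cells and Retnlg, a defining neutrophil gene, in 10.9% and 9.89%, so it is named only by its gate, Csf3r and Il1r2. With 1 library per group no p-value is possible. Each value below describes these libraries, and each interval is a 95% interval of counting error only, which leaves out the spread between mice.

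In the tumour cells and the leukocytes the same 10 genes had very different levels. Phlda3 was a tumour cell transcript here, and Pmaip1 and Trp53inp1 were leukocyte transcripts. Phlda3 stood at 102 CPM in vehicle and 99.8 CPM in SCDi tumour cells, against 2.40 and 3.17 CPM over all gated leukocytes, which is 42.3-fold and 31.5-fold higher. Krt8, at 1.85 and 3.49 CPM in macrophages, was 1 marker of tumour RNA there, beside 4.07 and 5.23 CPM of Phlda3. Trp53inp1 lay at the other end, with 0.425 and 0.409 CPM in tumour cells and 21.3 and 14.3 CPM in leukocytes. Pmaip1 had 1.91 and 1.34 CPM in tumour cells and 69.0 and 55.0 CPM in leukocytes.

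The other members differed less between the compartments. Past 2-fold, 3 members were higher in tumour cells in both treatments (Phlda3, Aen and Zmat3), in a background of 31 and 31.1% of all tested genes for vehicle and SCDi. The nuclease gene Aen stood at 52.9 and 60.8 CPM against 15.2 and 18.1 CPM in leukocytes, and Zmat3 at 13.7 and 12.7 CPM against 5.44 and 5.77 CPM. Lower past 2-fold were 4 members (Mdm2, Ccng1, Pmaip1 and Trp53inp1), beside 26.4% and 26.1% of all tested genes. Mdm2 had 43.0 and 35.0 CPM in tumour cells against 131 and 120 CPM in leukocytes, and Ccng1 had 12.7 and 13.1 CPM against 34.1 and 35.2 CPM. Cdkn1a, Bax and Bbc3 lay within 2-fold. Tumour and immune cells were separate libraries of different depth, so the cell type and the library cannot be told apart in these comparisons.

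Shares of cells gave the same picture for these genes at equal depth. Thinned to 2000 UMIs per cell, which left out 344 vehicle and 680 SCDi tumour cells, Phlda3 had a UMI in 17.3% (16.5 to 18.3) of vehicle and 17.4% (16.5 to 18.2) of SCDi tumour cells. Before thinning the shares were 85.6% and 84.7%. In monocytes the thinned shares were 0.179% in each library, and the shares before thinning 0.774% and 1.19%, at median depths of 14523 and 15022 UMIs. Pmaip1 had a UMI in 41.0% and 45.1% of thinned migratory dendritic cells, 87.7% and 87.0% before thinning, against 0.350% and 0.344% of thinned tumour cells. Trp53inp1 had one in 23.2% and 20.2% of thinned T cells, 67.5% and 55.4% before thinning, against 0.102% and 0.140% of thinned tumour cells. Before thinning, 7.31% and 4.65% of tumour cells had a Pmaip1 UMI and 1.69% and 1.49% a Trp53inp1 UMI.

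**Figure D1:**
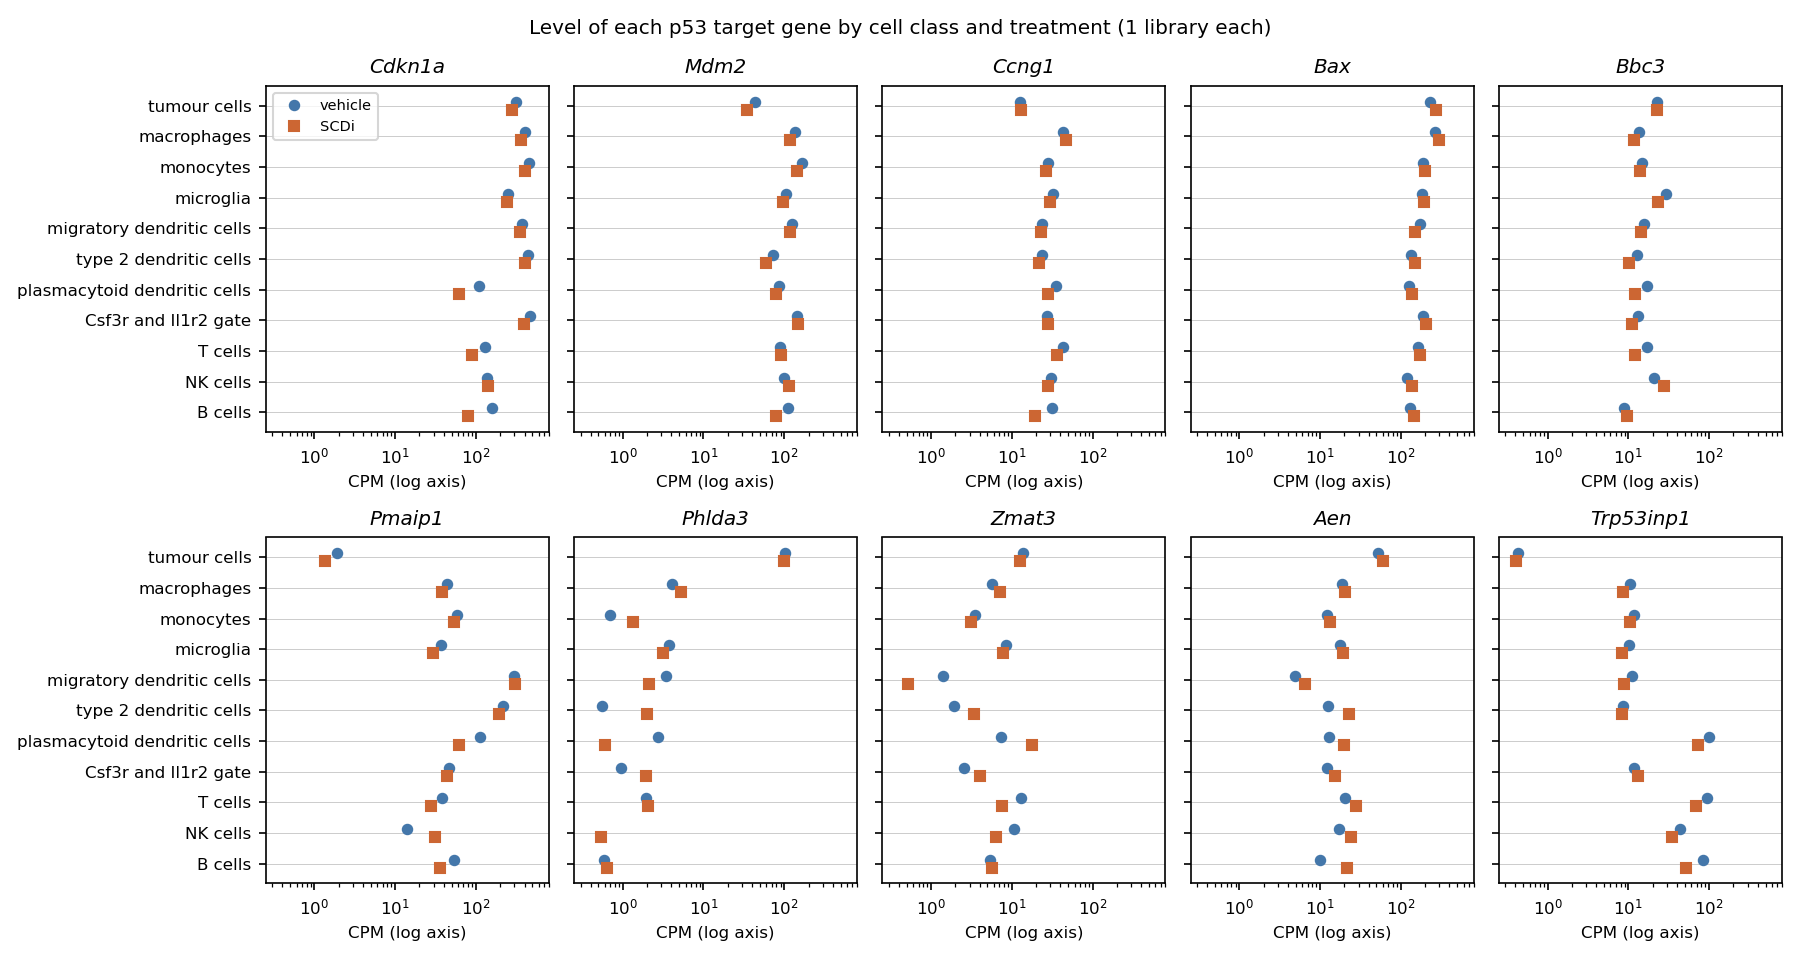
Level of each of the 10 genes (CPM, log axis) in tumour cells and 10 leukocyte classes, with circles for the vehicle and squares for the SCDi library; a level of 0 is not drawn (Phlda3 in vehicle NK cells). Phlda3 is far higher in tumour cells than in any leukocyte class, and Pmaip1 and Trp53inp1 are lowest in tumour cells.

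Among leukocytes the members had different orders. Cdkn1a was highest in myeloid cells: 470 and 395 CPM in the Csf3r and Il1r2 gate, 449 and 405 CPM in monocytes and 443 and 410 CPM in type 2 dendritic cells, whose ranges over the 2 libraries overlapped. Macrophages followed with 408 and 367 CPM, migratory dendritic cells with 369 and 349 CPM and microglia with 253 and 244 CPM, and the lowest level was 110 and 61.8 CPM in plasmacytoid dendritic cells. NK, B and T cells lay between 80.4 and 158 CPM. The range of B cells overlapped those of the other two, NK and T cells did not overlap, and plasmacytoid dendritic cells overlapped B and T cells. Mdm2 was highest in monocytes (164 and 142 CPM) and the Csf3r and Il1r2 gate (143 and 149 CPM), and lowest in type 2 dendritic cells (73.2 and 60.2 CPM). Ccng1 led in macrophages (43.0 and 47.2 CPM), then in T cells (42.6 and 36.5 CPM), and the other classes ran from 19.6 to 35.0 CPM.

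The apoptosis members each had their own leading class. Bax led in macrophages with 264 and 299 CPM, a range that overlapped that of tumour cells (233 and 271 CPM). Its lowest class was NK cells with 119 and 136 CPM, which overlapped plasmacytoid dendritic, B and type 2 dendritic cells. Bbc3 was highest in microglia (29.1 and 23.4 CPM), NK cells (20.6 and 27.8 CPM) and tumour cells (22.7 and 22.4 CPM). Microglia and NK cells overlapped, and so did NK and tumour cells. Pmaip1 set dendritic cells apart: migratory dendritic cells had 300 and 305 CPM, type 2 dendritic cells 218 and 196 CPM and plasmacytoid dendritic cells 113 and 61.8 CPM, with no overlap between these classes. Monocytes, the next class, had 57.7 and 53.7 CPM.

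Trp53inp1 followed the lymphoid line. Plasmacytoid dendritic cells had 101 and 73.9 CPM, T cells 95.2 and 68.2 CPM, B cells 84.3 and 51.9 CPM and NK cells 43.9 and 34.7 CPM. The 6 myeloid classes lay between 8.27 and 13.2 CPM, below every lymphoid value. Aen ranged among leukocytes from 4.94 CPM in vehicle migratory dendritic cells to 28.0 CPM in SCDi T cells. Zmat3 was lowest in migratory dendritic cells (1.39 and 0.526 CPM).

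Genes with the pattern most like that of Cdkn1a over the 22 class and library values were Anxa5, an annexin (Pearson r of log2(CPM + 1) 0.91), Rtn4 (0.90), the copper chaperone Atox1 (0.90), the stress-induced chromatin protein Nupr1 (0.89) and Sestd1 (0.89), out of 10170 genes compared. For Ccng1 they were Fyb (0.87), the transcription factor Maf (0.87), the carbonyl reductase Cbr1 (0.86), Rcan3 (0.86) and Snx13 (0.85). Without the tumour cells the values were 0.89 to 0.92 for the first set and 0.66 to 0.80 for the second. The points share 4 libraries and each class counts once per treatment, so these are descriptions.

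p53 binds a pair of 10-base motifs, and promoter sequence was read to see which members carry one near the start. RefSeq promoter windows (GRCm38.p6, 250 bases before to 50 after the start) were found for 7 members, in 11 windows; Pmaip1, Zmat3 and Trp53inp1 had none matched. The p53 decamer, a palindromic consensus that reads the same on both strands, was found in 6 of these windows, of 5 genes, and in 8.36% of all 32851 windows. The windows of Phlda3 and Bbc3 did not hold these letters. The Aen windows overlap and both hold the same decamer, so that site counts once for each of them. The members were chosen as p53 targets, so the share of their windows with a decamer is not an independent result. A pair with a spacer of at most 13 bases was in 0.0731% of all windows, and Cdkn1a was the 1 member with a pair. It lay in the more upstream of the Cdkn1a windows, with 12 bases between the decamers. Their first bases were 73 and 51 bases before the start of that window's transcript, and the other Cdkn1a window held no decamer. Matches had to be exact, so decamers with a mismatch are not marked. This bears on the Cdkn1a pair: the 10 bases directly after its second decamer are not an exact match. A pair without a spacer there would not be counted, so the spacing of 12 bases holds under the exact rule only. The stretches below are shown because they hold the decamers of the 4 members with the clearest differences in tumour cells and of Ccng1; each is read 5′ to 3′ on the gene's strand and capitals mark the decamers. The regions are chr17:29090881-29090962 (plus) for Cdkn1a, chr10:117710910-117710969 (minus) for Mdm2, chr11:40755437-40755496 (minus) for Ccng1, chr7:45467065-45467124 (minus) for Bax and chr7:78895912-78895971 (plus) for Aen.
Cdkn1a: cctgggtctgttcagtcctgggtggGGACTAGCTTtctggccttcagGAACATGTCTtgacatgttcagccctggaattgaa
Mdm2: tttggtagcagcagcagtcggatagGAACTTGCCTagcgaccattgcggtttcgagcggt
Ccng1: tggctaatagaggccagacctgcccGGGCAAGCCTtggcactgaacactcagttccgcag
Bax: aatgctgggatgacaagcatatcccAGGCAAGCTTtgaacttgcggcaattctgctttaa
Aen: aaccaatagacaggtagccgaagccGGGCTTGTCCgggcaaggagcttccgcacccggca
A match is a description of these letters and not a bound site.

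The comparison of the tumour libraries addresses whether p53 target transcripts differed in cancer cells of mice on SCDi. They did not differ together: Cdkn1a and Mdm2 were lower, Bax and Aen were higher, and in no member with enough counts did one library exceed the other by 25%. A member counted as tested when it had a mean of at least 5 CPM and 50 UMIs in sum, which 8 of 10 had, and 0 of the 8 passed the 25% threshold (the higher library at least 25% above the lower) in either direction, against 9.52% of all 9368 tested genes. With 3 higher (41.7% of all tested genes were) and 5 lower (58.3%), their median log2 ratio of SCDi over vehicle was -0.02, beside -0.04 for all tested genes.

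The arrest and feedback members were lower or level. Cdkn1a, the p21 gene (ENSMUSG00000023067, chromosome 17, 29090976 to 29100727, plus strand of GRCm38), stood at 313 CPM in vehicle (94282 UMIs) and 281 CPM in SCDi (91333 UMIs), a log2 ratio of -0.16 (-0.17 to -0.14). Mdm2 (ENSMUSG00000020184, chromosome 10, 117688875 to 117710758, minus strand) stood at 43.0 and 35.0 CPM, a log2 ratio of -0.30 (-0.33 to -0.26), the lowest among the tested members. Thinning to 5000 UMIs left out the cells below that depth. With this thinning, or in the cells with less chromosome 8 RNA described below, Mdm2 passed the 25% threshold (lowest value -0.35). Ccng1 (chromosome 11) stood at 12.7 and 13.1 CPM, and its log2 ratio of 0.05 had an interval that includes 0 (-0.01 to 0.11).

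The apoptosis members split. Bax (ENSMUSG00000003873, chromosome 7, 45461697 to 45466898, minus strand) stood at 233 CPM in vehicle (70106 UMIs) and 271 CPM in SCDi (88262 UMIs), a log2 ratio of 0.22 (0.21 to 0.23). An unnamed gene, ENSMUSG00000109926, overlaps Bax exons on the same strand, so the counting could split their reads. Aen (ENSMUSG00000030609, chromosome 7, 78895854 to 78911209, plus strand) stood at 52.9 and 60.8 CPM, a log2 ratio of 0.20 (0.17 to 0.23). The BH3-only gene Bbc3 (chromosome 7) stood at 22.7 and 22.4 CPM, and its interval includes 0 (-0.07 to 0.03). The decamers printed above lie at genes that differed in both directions.

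Phlda3, the most tumour-restricted member (chromosome 1), was level at 102 and 99.8 CPM, with a log2 ratio of -0.03 (-0.05 to -0.00). Zmat3 (chromosome 3) stood at 13.7 and 12.7 CPM, a log2 ratio of -0.11 (-0.17 to -0.05), but 0.20 in cells without Mki67 or Top2a. The 2 members below the threshold were Pmaip1 (chromosome 18), with 576 and 435 UMIs and a log2 ratio of -0.52 (-0.70 to -0.33), and Trp53inp1 (chromosome 4), with 128 and 133 UMIs and -0.06 (-0.42 to 0.31). Both are near absent in these cells.

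**Figure D2:**
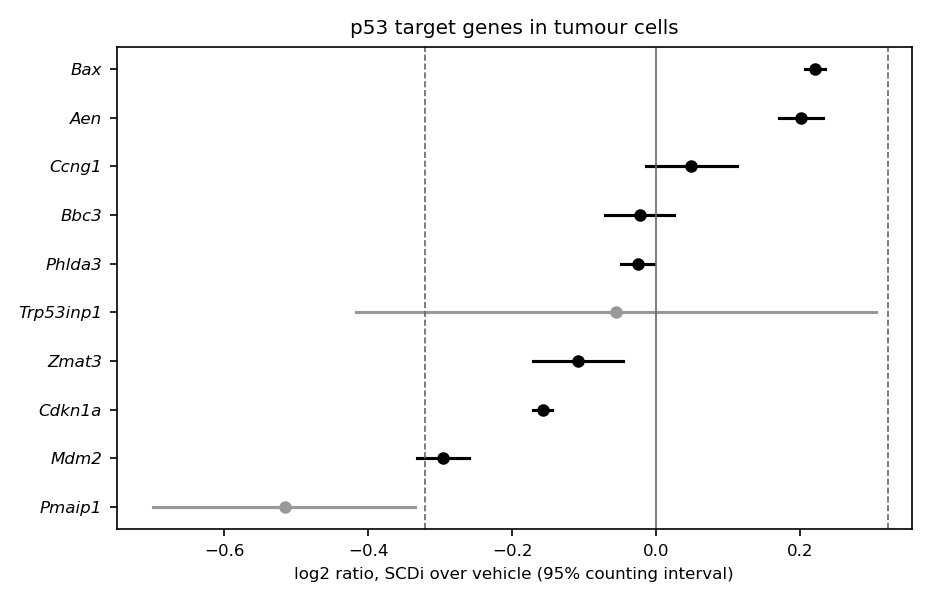
Log2 ratio of SCDi over vehicle in tumour cells (points) with 95% counting intervals (bars) for the 10 genes; dashed lines mark the 25% threshold and grey marks the 2 genes under the count threshold. Bax and Aen lie near 0.2, Cdkn1a at -0.16 and Mdm2 at -0.30, with all 4 points between the dashed lines.

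Median ratios also differed a little between chromosomes, so the members were set beside their neighbours. The median log2 ratio of tested genes was between -0.13 (chromosome 8) and 0.02 (chromosome 15), and was -0.01 on chromosome 7, which holds Bax, Bbc3 and Aen. Relative to its own chromosome, Cdkn1a had a log2 ratio of -0.15, Mdm2 -0.26, Bax 0.23 and Aen 0.21. When tumour cells were divided at the median share of chromosome 8 UMIs, a division chosen after seeing the data, 2807 vehicle and 5051 SCDi cells fell below it. Cdkn1a had a log2 ratio of -0.10 in the lower and -0.28 in the upper group, Mdm2 -0.35 and -0.23, Bax 0.28 and 0.17, and Aen 0.25 and 0.15. These 4 genes had the same direction on each side, while Phlda3 had -0.10 in the lower and 0.08 in the upper group.

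The rest of the p53 network, from lists of textbook genes chosen with earlier results of these data known, was described the same way. Of 30 other p53 targets 19 were tested: 8 were higher and 11 lower, with a median log2 ratio of -0.00, beside -0.04 for all tested genes. Past the 25% threshold were 2 higher, Gtse1, a G2 and M phase protein that restrains p53 (9.53 and 13.2 CPM, 0.47), and the stress cytokine Gdf15 (14.6 and 18.8 CPM, 0.37), beside 3.28% of all genes. Past it on the lower side was 1, the antiproliferative gene Btg2 (10.2 and 7.0 CPM, -0.55), beside 6.24%, and the next lowest was Polk, a DNA polymerase for damaged templates (22.3 and 18.6 CPM, -0.26).

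Of 15 genes for p53 and its regulators 12 were tested, with 6 higher and 6 lower. Trp53 itself stood at 135 and 146 CPM (log2 ratio 0.12, 0.10 to 0.14). The checkpoint kinases were highest, Chek1 at 0.33 and Chek2 at 0.27, and Mdm4, the partner of Mdm2 in restraining p53, was lowest at 44.7 and 36.4 CPM (-0.30), followed by the kinase gene Hipk2 (-0.20). Cdkn2a, which encodes the MDM2 inhibitor ARF, had 2 UMIs in vehicle and 1 in SCDi. These counts do not show whether Trp53 carries a mutation in this line.

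Genes that p21 represses through the DREAM complex were the list with the plainest shift: 14 of 14 were higher in the SCDi library and 9 of them passed the 25% threshold, with a median log2 ratio of 0.41. Of all genes, 41.7% were higher and 3.28% passed it on that side, with a median of -0.04. The mitotic kinase gene Plk1 (29.2 and 41.6 CPM, 0.51) and the mitotic activator Cdc20 (71.5 and 99.8 CPM, 0.48) were highest, and E2f1 (0.18) and Bub1 (0.23) lowest. These are also cell cycle genes, and the share of tumour cells with a UMI of Mki67 or Top2a, markers of cycling, was 64.0% in vehicle and 76.4% in SCDi at 10000 UMIs per cell. Their part in the list's value was not tested.

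Other brakes of the cell cycle and other BCL2 genes did not move as 1 group. Of 6 CDK inhibitors 3 were tested: Cdkn2c (4.42 and 5.94 CPM, 0.43) and Cdkn2d (39.7 and 48.1 CPM, 0.28), both INK4 inhibitors, and Cdkn1b, which encodes p27 (19.2 and 17.7 CPM, -0.11). Of 13 further BCL2 family genes 9 were tested, 4 higher and 5 lower. The pro-apoptotic Bik (4.27 and 5.95 CPM, 0.48) and Bad (37.9 and 41.3 CPM, 0.12) were highest, and the anti-apoptotic Bcl2l1 (98.4 and 77.8 CPM, -0.34) and Bcl2 (8.08 and 7.02 CPM, -0.20) lowest, with Mcl1 at 150 and 137 CPM (-0.13).

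Cdkn1a was unevenly spread over single tumour cells, more so than Bax, the member with a similar mean. Thinned to 10000 UMIs per cell, its variance was 2.26 times its mean in vehicle and 2.22 times in SCDi tumour cells, where random sampling alone gives a value near 1. For Bax, at a similar mean, the values were 1.16 and 1.11. For the other 8 members they ran from 0.996 to 1.15, at means of at most 0.994 UMIs per cell. Variance over mean also depends on the mean, so these 8 cannot be ranked against Cdkn1a by it. At least 5 Cdkn1a UMIs were found in 22.0% of the vehicle cells and 18.4% of the SCDi cells, and 0 in 14.5% and 16.8%. Macrophages had higher values still for Cdkn1a, 3.25 and 3.74, at higher means (4.23 and 3.77 UMIs, against 2.95 and 2.67 in tumour cells). There 38.1% and 30.8% of cells had at least 5 UMIs.

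**Figure D3:**
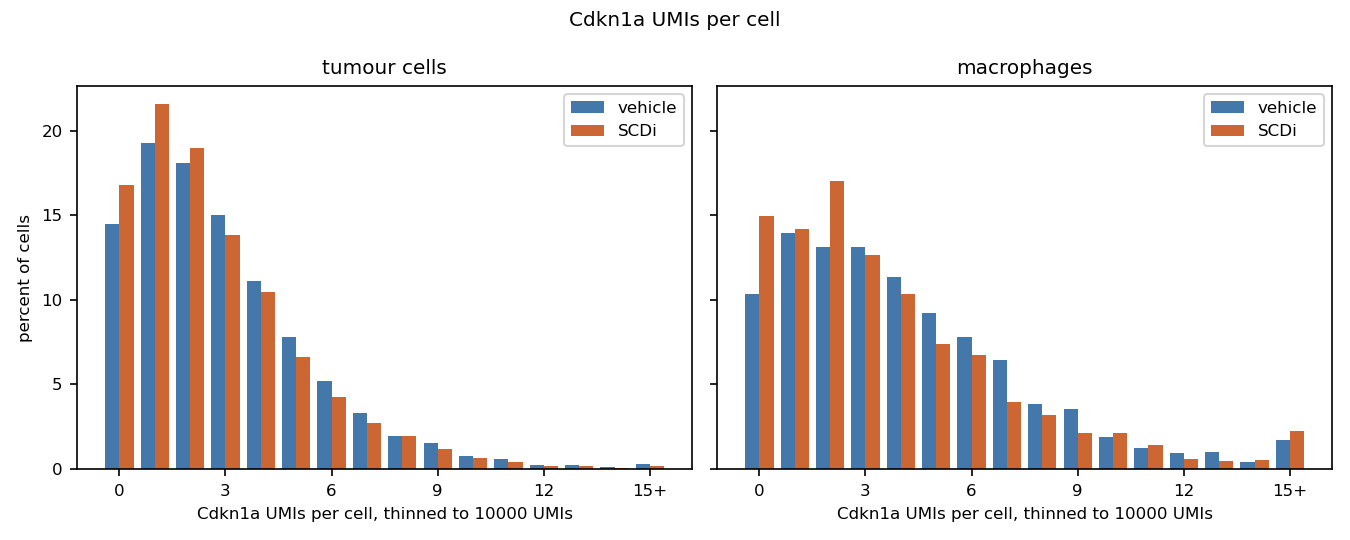
Percent of cells (vertical axis) by number of Cdkn1a UMIs per cell after thinning to 10000 UMIs, in tumour cells (left) and macrophages (right), with 1 bar for each treatment's library. Cells with 0 UMIs are 14.5% and 16.8% of tumour cells, and the SCDi bars are higher at 0 in both cell types.

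Cycling cells had a little less Cdkn1a, and no member passed the 25% threshold between cells with and without Mki67 or Top2a in both libraries (0 of 8 tested). At equal depth, 4152 vehicle cells with such a UMI had 281 CPM of Cdkn1a and 2335 cells without had 319 CPM, a log2 ratio of -0.18 (-0.23 to -0.14). In SCDi the values were 256 and 301 CPM, -0.23 (-0.27 to -0.18). Among all genes 2.46% and 2.97% were lower past the 25% threshold in cells with these markers, and 12% and 9.19% higher. Bbc3 had -0.11 (-0.26 to 0.04) in vehicle and -0.31 (-0.46 to -0.16) in SCDi, where it lay below Cdkn1a. At 5000 UMIs per cell Bbc3 had -0.18 (-0.39 to 0.02) in vehicle and -0.07 (-0.27 to 0.13) in SCDi. At that depth Cdkn1a had -0.20 in SCDi, so this order did not hold.

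The other 9 members were then compared between cells with at least 5 and with 0 thinned Cdkn1a UMIs. In tumour cells 2 of 7 tested members (Mdm2 and Bbc3) were past the 25% threshold higher in vehicle, where 13.6% of all genes were, and 1 of 7 (Zmat3) in SCDi, where 11.5% were, so none was in both. Mdm2 had 46.8 CPM in 1428 high and 35.3 CPM in 939 zero cells of the vehicle library (log2 ratio 0.41, 0.22 to 0.60), and 39.1 and 33.3 CPM in SCDi (0.23, 0.05 to 0.42). Bbc3 had 0.54 (0.27 to 0.81) and 0.18 (-0.05 to 0.42), and Phlda3 0.24 (0.12 to 0.37) and 0.16 (0.04 to 0.27). Zmat3 reached 0.37 (0.06 to 0.69) in SCDi but had 0.03 (-0.28 to 0.36) in vehicle. Bax, Ccng1 and Aen had intervals that include 0 in both libraries, with Bax at 234 and 234 CPM in vehicle.

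Of the 19 tested other p53 targets, 4 were higher and 0 lower past the 25% threshold in high vehicle cells (median 0.11 against 0.06 for all genes), and 5 were higher and 3 lower in SCDi (median -0.01 against 0.02). Among them Btg2 had 14.6 CPM in high and 6.07 CPM in zero vehicle cells (log2 ratio 1.26, 0.84 to 1.72), and 12.2 and 2.51 CPM in SCDi (2.26, 1.73 to 2.88). Gdf15 had 0.38 (0.06 to 0.71) and 0.65 (0.38 to 0.92). Of the 14 DREAM genes, 10 in vehicle and 11 in SCDi were lower past the 25% threshold in high cells (medians -0.54 and -0.48, against 0.06 and 0.02 for all genes), beside 5.3% and 7.35% of all genes. Trp53 had 0.10 and -0.03. High cells were deeper before thinning, with medians of 49755 and 44104 UMIs against 37375 and 34714.5. Fewer of them were cycling by Mki67 or Top2a, 58.8% against 65.2% of zero cells in vehicle and 70.6% against 80.3% in SCDi. The DREAM genes are also cell cycle genes, and the part of depth and of cycling in these values was not tested.

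In macrophages, a comparison added after seeing the data, more of the other members were higher in high Cdkn1a cells. Past the 25% threshold were 5 of 8 tested members in vehicle (Mdm2, Ccng1, Bax, Bbc3 and Phlda3), beside 13.5% of all genes, and 8 of 9 in SCDi, where Aen was the exception, beside 9.89%. No tested member was lower past it, beside 19.9% and 18.3% of all genes. Phlda3 reached the count threshold only through the high cells, so its place in these counts follows from that. Ccng1 had 56.5 CPM in 527 high and 30.8 CPM in 143 zero cells in vehicle (log2 ratio 0.86, 0.42 to 1.37), and 63.2 and 36.8 CPM in SCDi (0.77, 0.44 to 1.13). Bax had 325 and 220 CPM (0.56, 0.39 to 0.74), and 343 and 255 CPM in SCDi (0.43, 0.30 to 0.56). Mdm2 had 0.45 (0.21 to 0.72) and 0.59 (0.38 to 0.81). Zmat3 in SCDi had 0.45, with an interval that includes 0 (-0.40 to 1.43). With at least 3 against 0 Cdkn1a UMIs, Zmat3 in SCDi was 0.23 and no longer past the 25% threshold. Mdm2, Ccng1 and Bax stayed past it in each library, Bax in SCDi only just (0.323). Unlike tumour cells, high and zero macrophages had similar depth, with medians of 19178 and 20222 UMIs in vehicle and 20939.5 and 22051 in SCDi.

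Phlda3, rare in macrophages as a whole, had 64 UMIs in high and 0 in zero vehicle macrophages, and 52 and 4 UMIs in SCDi. It passed the count threshold only through the high cells, so its direction is not a result and no fold is given. With at least 3 against 0 Cdkn1a UMIs it was under the count threshold in each library. The tumour marker Krt8 stood at 2.47 and 2.10 CPM in vehicle and 1.18 and 4.05 CPM in SCDi. Bbc3 had a log2 ratio of 0.64 in vehicle, where the interval includes 0 (-0.17 to 1.66), and 1.63 (0.88 to 2.56) in SCDi. Pmaip1 went apart, with -0.28 (-0.65 to 0.11) and 0.62 (0.27 to 1.00). Of the 19 tested other p53 targets, 10 in vehicle and 9 in SCDi were higher past the 25% threshold, beside the 13.5% and 9.89% of all genes above, and 1 and 3 were lower, beside 19.9% and 18.3%, with medians of 0.36 and 0.30 against -0.05 and -0.07 for all genes. The difference between tumour cells and macrophages in these values was not tested.

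**Figure D4:**
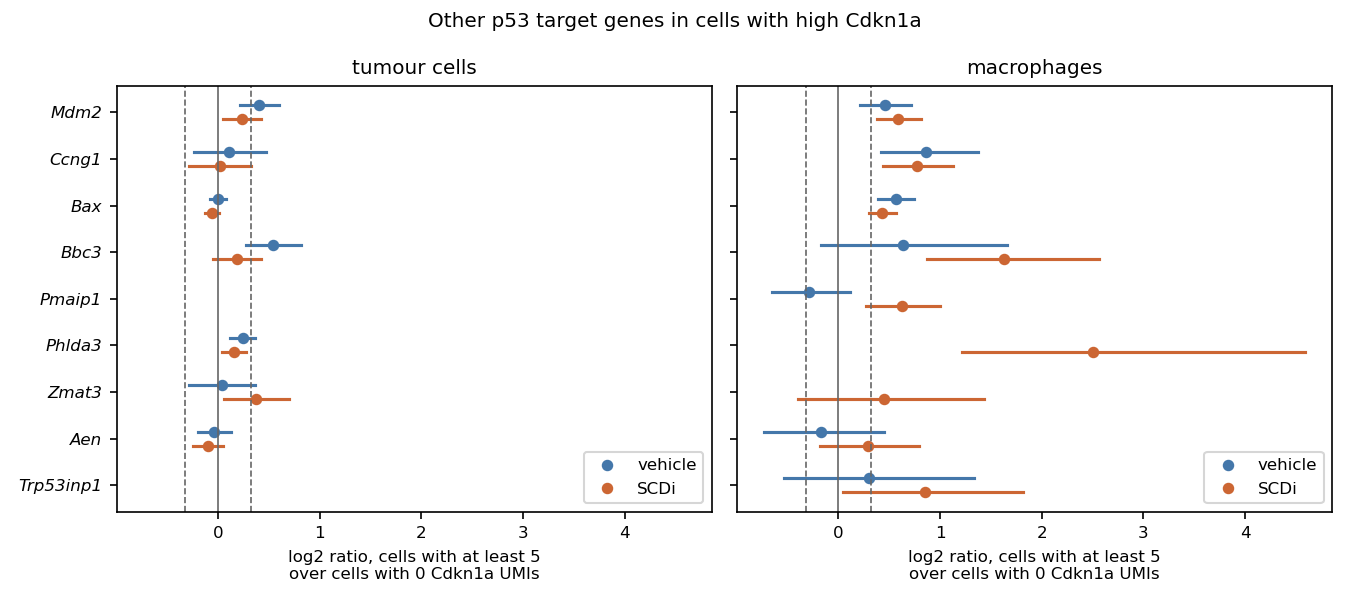
Log2 ratio of each other member between cells with at least 5 and cells with 0 Cdkn1a UMIs (thinned to 10000 UMIs), in tumour cells and macrophages, for each library, with 95% counting intervals; genes under the count threshold and the vehicle Phlda3 ratio against 0 UMIs are not drawn. Mdm2, Ccng1 and Bax lie to the right of the upper dashed line (the 25% threshold) in both macrophage libraries, while Bax and Ccng1 lie near 0 in tumour cells.

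The comparison of the immune libraries addresses whether the same genes differed in leukocytes. Cdkn1a was lower in SCDi in 9 of 10 classes, Trp53inp1 in 9 of 10, Aen was higher in 10 of 10 and Bax in 9 of 10, as in tumour cells for Cdkn1a, Bax and Aen. Fewer classes had an interval off 0 in that direction: 7 for Cdkn1a, 4 for Trp53inp1, 4 for Aen and 3 for Bax, which had 1 below 0. All classes come from the same 2 libraries, so they are not independent. The share of all genes with 1 direction in as many classes was not computed. Few members passed the 25% threshold in the large myeloid classes: 2 of 9 tested in macrophages (13% of all genes), 0 of 8 in monocytes (10.8%), 0 of 9 in microglia (10.9%) and 1 of 8 in the Csf3r and Il1r2 gate (16.5%). In small classes many genes of all kinds passed.

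Cdkn1a was lower in myeloid classes by small amounts. It stood at 408 and 367 CPM in macrophages (log2 ratio -0.15, -0.19 to -0.12), 449 and 405 CPM in monocytes (-0.15, -0.18 to -0.11), and 470 and 395 CPM in the Csf3r and Il1r2 gate (-0.25, -0.31 to -0.19). In microglia it was 253 and 244 CPM, with an interval that includes 0 (-0.13 to 0.02). Larger differences stood in lymphoid classes: 158 and 80.4 CPM in B cells (-0.98, -1.30 to -0.67), 110 and 61.8 CPM in plasmacytoid dendritic cells (-0.82, -1.18 to -0.49) and 129 and 89.9 CPM in T cells (-0.52, -0.68 to -0.36). They kept their sign under each of 9 alternatives, with ranges of -1.45 to -0.77, -1.14 to -0.37 and -0.52 to -0.27. NK cells did not share this, with 139 and 142 CPM (0.03, -0.21 to 0.27). Cdkn1a had a UMI in 27.8% (20.4 to 36.3) of vehicle and 21.1% (14.0 to 29.7) of SCDi B cells. In plasmacytoid dendritic cells the shares were 34.4% (26.1 to 43.6) and 21.3% (13.5 to 30.9). In T cells they were 49.9% (44.7 to 55.0) and 41.7% (35.5 to 48.2). The share intervals of vehicle and SCDi overlapped in each of these classes. The ratio intervals take each UMI as independent, and whether a few cells carry the differences was not tested.

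Myeloid RNA in the lymphoid gates is given beside these values, since Cdkn1a is high in myeloid cells. The summed level of 6 myeloid genes (Lyz2, Csf1r, Cd68, Itgam, Tyrobp and Fcer1g, of which the last 2 are also NK and plasmacytoid dendritic cell genes) was 4379 and 3224 CPM in B cells, 22.4% and 14.5% of that of monocytes. In T cells it was 2902 and 2798 CPM, in NK cells 6023 and 7128 CPM and in plasmacytoid dendritic cells 5687 and 6434 CPM, and all 6 had UMIs in each class. Lyz2 stood at 1554 and 1197 CPM in B cells and at 1182 and 1219 CPM in T cells. The sum was thus lower in SCDi in B cells and T cells and higher in the other 2 classes, and its part in the Cdkn1a values was not tested.

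Mdm2 had intervals below 0 in 4 classes. It stood at 135 and 117 CPM in macrophages (-0.20, -0.26 to -0.15), 164 and 142 CPM in monocytes (-0.21, -0.27 to -0.14), 73.2 and 60.2 CPM in type 2 dendritic cells (-0.28, -0.55 to -0.02) and 110 and 78.5 CPM in B cells (-0.49, -0.83 to -0.16). In type 2 dendritic cells thinned to 5000 UMIs it was -0.06. In T cells it was level at 89.0 and 90.1 CPM (0.02, -0.15 to 0.19), while Cdkn1a was lower there. Ccng1 was higher in macrophages, at 43.0 and 47.2 CPM (0.13, 0.04 to 0.23), and lower in B cells, at 31.5 and 19.6 CPM (53 and 31 UMIs, -0.67, -1.37 to -0.01), but 0.06 in B cells with 1 more marker.

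Bax was higher in macrophages (264 and 299 CPM, 0.18, 0.14 to 0.22), monocytes (186 and 202 CPM, 0.12, 0.06 to 0.18) and the Csf3r and Il1r2 gate (188 and 207 CPM, 0.14, 0.05 to 0.23). Thinned to 5000 UMIs, the last 2 were 0.02 and -0.01. Migratory dendritic cells were the exception, at 173 and 149 CPM (-0.22, -0.37 to -0.07). Aen had an interval above 0 in 4 classes: type 2 dendritic cells (46 and 81 UMIs, 12.7 and 23.1 CPM, 0.86, 0.33 to 1.42), B cells (17 and 34 UMIs, 1.07, 0.21 to 2.03), T cells (169 and 151 UMIs, 20.5 and 28.0 CPM, 0.45, 0.12 to 0.77) and the Csf3r and Il1r2 gate (0.35, 0.01 to 0.69, but -0.10 with thinning to 5000 UMIs). The lowest value in T cells was 0.17, with every cell weighted equally. In macrophages Aen had 18.8 and 20.5 CPM, with an interval that includes 0 (-0.03 to 0.27).

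The BH3-only genes were mostly lower. Bbc3 had intervals below 0 in macrophages (13.5 and 11.7 CPM, -0.21), microglia (29.1 and 23.4 CPM, -0.31, -0.54 to -0.08) and T cells (17.2 and 12.2 CPM, -0.49, -0.94 to -0.06, but 0.02 with every cell weighted equally). Pmaip1 had intervals below 0 in 6 classes, from -0.16 in type 2 dendritic cells to -0.87 (-1.22 to -0.54) in plasmacytoid dendritic cells. In migratory dendritic cells, where its level was highest, it was 300 and 305 CPM (0.02, -0.08 to 0.13). NK cells went the other way, with 31 and 58 UMIs, 13.9 and 31.0 CPM (1.15, 0.51 to 1.84), but with thinning to 5000 UMIs the ratio was -0.10. In B cells Pmaip1 was -0.57 (-1.08 to -0.08), and -0.01 with thinning.

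Trp53inp1 was lower where it is expressed most. T cells had 95.2 and 68.2 CPM (784 and 368 UMIs, -0.48, -0.66 to -0.30), B cells 84.3 and 51.9 CPM (-0.70, -1.11 to -0.30) and plasmacytoid dendritic cells 101 and 73.9 CPM (-0.44, -0.78 to -0.12). With thinning to 5000 UMIs the T cell ratio was -0.04 and that of plasmacytoid dendritic cells -0.10. Macrophages had 10.6 and 8.49 CPM (-0.32, -0.54 to -0.11), just past the 25% threshold. Zmat3 split, with 5.65 and 7.16 CPM in macrophages (0.34, 0.07 to 0.61, but -0.06 with thinning) and 13 and 7.60 CPM in T cells (-0.76, -1.33 to -0.24). Phlda3 reached the count threshold in no leukocyte class, and in macrophages had 136 and 228 UMIs (0.36, 0.05 to 0.68).

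In the lymphoid and dendritic classes, members past the 25% threshold were 6 of 9 tested in T cells (28.4% of all genes), 6 of 7 in B cells (40.7%), 4 of 8 in NK cells (31.1%) and 6 of 8 in plasmacytoid dendritic cells (30.3%). In T cells, B cells and plasmacytoid dendritic cells 5 of these were lower, beside 16%, 25% and 16.4% of all genes. They were 2 of 8 in type 2 dendritic cells (32.3%) and 1 of 8 in migratory dendritic cells (25.2%). With cells thinned to 5000 UMIs the counts fell to 2 of 8 in T cells, 2 of 4 in NK cells and 2 of 5 in plasmacytoid dendritic cells, with 4 of 4 in B cells. Cells below that depth were left out, and the share of all genes was not computed for this setting. Median log2 ratios of the tested members were -0.48 in T cells, -0.57 in B cells, -0.38 in plasmacytoid dendritic cells and 0.20 in NK cells, against medians from -0.07 to 0.00 for all genes of these 4 classes. The T cell median was -0.10 with every cell weighted equally, -0.15 with thinning and -0.21 without the 5% of barcodes with the most UMIs. The NK cell median was 0.01 with every cell weighted equally and -0.02 with thinning.

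**Figure D5:**
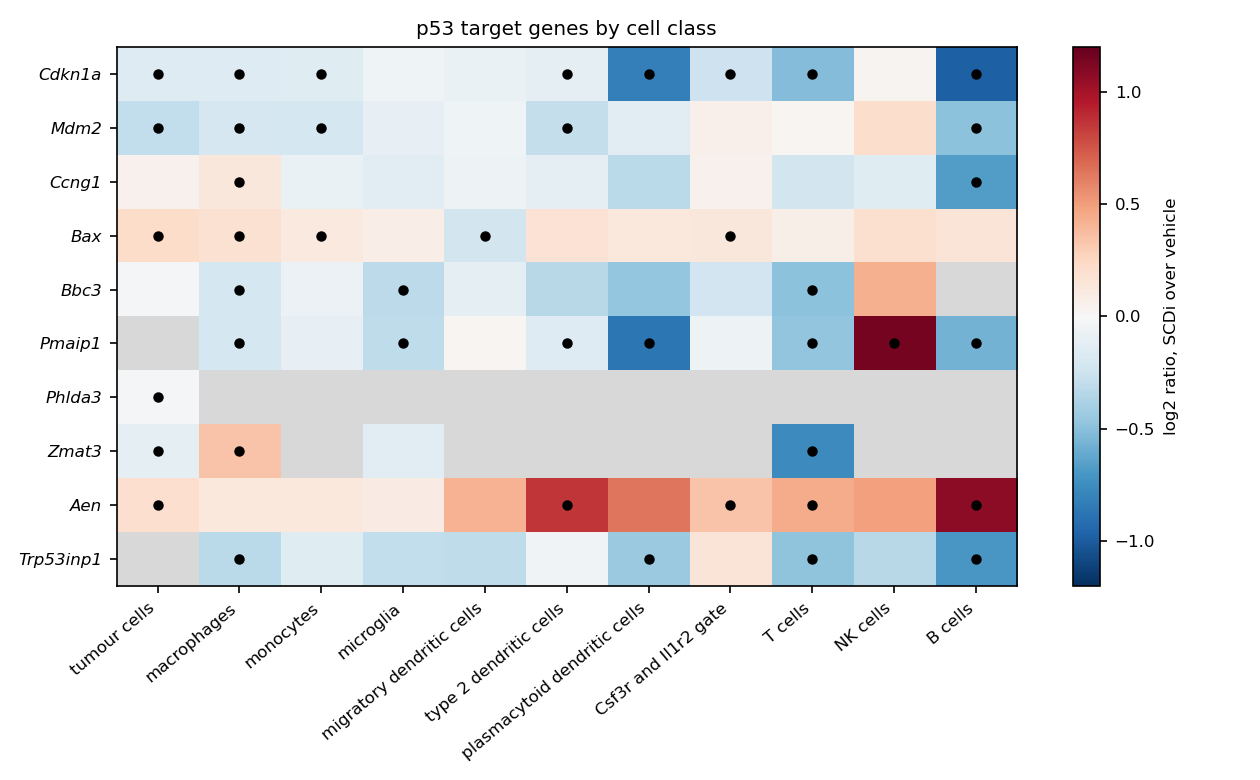
Log2 ratio of SCDi over vehicle (colour) for each of the 10 genes (rows) in each cell class (columns), 1 library per group; a dot marks a 95% counting interval that excludes 0, and grey cells are under the count threshold. The Aen row is positive in every class and the Cdkn1a row negative in all but NK cells, and Pmaip1 in NK cells (1.15) stands against lower values in most classes, a direction that turned with thinning to 5000 UMIs.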

How the data were processed

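The authors deposited raw UMI counts per gene and barcode for 4 libraries. The submitters' processing notes name Cell Ranger 7.1.0 and the build mm10; whether intronic reads were counted is not given in the sources used here. Barcodes with under 300 genes or over 15% mitochondrial UMIs were left out. Cells were gated on marker UMIs (3 markers of a list, 4 for microglia; C1q at 10 per 10000 UMIs parts macrophages from monocytes, and 272 of 3377 vehicle and 280 of 3559 SCDi cells lay between 5 and 20). Mixed gates (623 and 533 cells) and cells without a name (335 and 187) were left out; no doublet caller was run. UMIs were summed per class and library, and ratios had 0.5 counts added. Thinning drew a fixed number of UMIs per cell without replacement and left out cells with fewer, so it changed the set of cells as well as their depth. Intervals are exact conditional binomial for ratios and Clopper-Pearson for shares. Genes were named by a rule: all 10 members, the 2 highest and 2 lowest of each list with Trp53, Cdkn2a, Mdm4, Cdkn1b, Mcl1 and Bcl2l1, and the 5 most similar genes; Gdf15, Btg2, Mki67, Top2a and Krt8 were followed in the split by Cdkn1a. The members and lists were chosen with earlier results of these data known. Gene positions are from GENCODE M21 (32158 genes matched). The calculation was run on simulated Poisson counts with known ratios. These leave out the uneven spread of UMIs over cells and the spread between mice, so the run does not test the intervals against either. Python 3.11.15, numpy 2.4.6 and scipy 1.17.1 were used.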

Additional observations from a re-analysis of the deposited data

Results flagged for a closer look

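Among class and gene pairs over the count threshold, 4 genes had cell classes with counting intervals on opposite sides of 0 for the ratio of SCDi over vehicle; the differences between classes were not tested. For Pmaip1 the log2 ratios in NK cells (1.15) and plasmacytoid dendritic cells (-0.87) were 2.02 apart. For Zmat3, macrophages (0.34) and T cells (-0.76) were 1.1 apart. For Ccng1, macrophages (0.13) and B cells (-0.67) were 0.80 apart. For Bax, tumour cells (0.22) and migratory dendritic cells (-0.22) were 0.44 apart. With 1 library per group none of these has a replicate, and the pairs are the most distant ones of each gene among those over the count threshold with an interval off 0. Pmaip1 in NK cells and Zmat3 in macrophages turned to -0.10 and -0.06 with cells thinned to 5000 UMIs, and Ccng1 in B cells to 0.06 with 1 more marker per gate.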

How the results depend on the processing

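No paired analysis was possible because each group is 1 library. In tumour cells no tested member passed the 25% threshold under most alternatives, and 1 did with no filter on members (Pmaip1), with cells thinned to 5000 UMIs (Mdm2) and in the cells with the lower share of chromosome 8 UMIs (Mdm2). The median log2 ratio of the members was 0.0112 with scaling by the median of ratios and 0.0608 in cells without Mki67 or Top2a, against -0.02. In leukocytes 28 of 82 member and class pairs passed the 25% threshold, 17 of 58 with members at 20 CPM and 17 of 64 with thinning to 5000 UMIs. The fewer pairs tested account for part of this and the rest was not tested. In the main setting the share of all genes past the threshold ran from 10.8% in monocytes to 40.7% in B cells. For the other settings this share was not computed. The ratios of Cdkn1a, Mdm2, Ccng1, Bax and Aen in tumour cells kept their sign under all 15 alternatives, with ranges of -0.28 to -0.10, -0.35 to -0.22, 0.02 to 0.15, 0.17 to 0.29 and 0.14 to 0.25. Bbc3, Phlda3 and Zmat3 changed sign in 3, 4 and 1 of them. Of 37 leukocyte values with an interval off 0, 30 kept their sign under all 9 alternatives and 7 did not. With thinning to 5000 UMIs Zmat3 in macrophages became -0.0577, Cdkn1a in type 2 dendritic cells 0.0239, Bax and Aen in the Csf3r and Il1r2 gate -0.0113 and -0.0980, and Pmaip1 in NK cells -0.104. With 1 more marker per gate Cdkn1a in type 2 dendritic cells became 0.0458 and Ccng1 in B cells 0.0578, and with every cell weighted equally Bbc3 in T cells became 0.0201. The cause was not tested. Depth limits the small classes: lymphoid members rest on as few as 17 UMIs.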

Other observations

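Perp, a p53 target that encodes a membrane protein of desmosomes, had 0 UMIs in 7198 vehicle tumour cells and 259 UMIs (0.797 CPM) in the SCDi tumour cells. Those UMIs lay in 46 of 8519 cells (0.540%), with up to 15 UMIs in a cell. With 3 cells as the floor, the 0 in vehicle allows up to 0.0417% of cells. UMIs that share cells are not independent, so no fold in CPM is given. The gene fell under the count threshold and was singled out after its values were seen.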
